A study of Mus musculus with 3 samples.

Results

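The regions described are the 720 gene ends of the 360 protein-coding mouse genes on chromosomes 1 to 19 whose RefSeq symbol is Zfp followed by digits only, out of 41324 ends of 20665 protein-coding genes. For each end, DNA methylation was read from a window of 1 kb to each side, as the mean of the 11 bins of 200 bp that cover it. The members were chosen by symbol and position alone; no protein sequence was used here, so the zinc fingers themselves were not checked.

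The 3 libraries came from organoids of the proximal colon of male mice about 40 days old, profiled by MBD-seq: beads coated with a methyl-CpG-binding polypeptide enrich methylated DNA, which is then sequenced. The mice carried 1 copy of a Cre-activable Braf V600E allele (Braf+/LSL), so every library, control included, comes from that genotype. EV stands for organoids given the lentiviral backbone without Cre, in full medium with Wnt3a, R-spondin, Noggin and EGF. Braf-Full stands for BRAF3 organoids, in which lentiviral Cre had switched the oncogene on, in that same medium. Braf-Base stands for BRAF3 organoids selected for growth in Base medium, which lacks the stem-cell niche factors. Culture lasted 5 months, with another 3 weeks in the named medium. The number of mice or clones behind a library is not stated. With a single library per condition (1 each) nothing was replicated and nothing could be tested, and every difference given is between libraries.

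Most Zfp genes encode transcription factors with tandem zinc fingers of the C2H2 type, each of which reads a few bases of DNA. Many also carry a KRAB domain, which recruits the corepressor Trim28 and, through it, Setdb1, a histone H3 lysine 9 methyltransferase, and such proteins silence transposable elements and help keep DNA methylation at imprinted genes. They lie in arrays of duplicated genes, and the fingers are usually encoded by the last exon. CpG-rich promoters are mostly unmethylated in normal epithelium, and gain of methylation at such promoters is a hallmark of BRAF-mutant serrated colon cancers.

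Promoters are shown first for the genes on which the results turn, because MBD-seq can see a window only where it holds CpG. The letters are the 250 bases before a RefSeq start (GRCm38.p6, of which mm10 is another name), 5′ to 3′ on the gene's strand, and capitals mark every CG, which reads the same on both strands. The first 4 belong to genes whose windows gained coverage with Braf in full medium. Those of Zfp651 and Zfp422 come from genes gained in only 1 of the Braf libraries, and that of Zfp996 from the highest coverage in 2 of the 3 libraries.
Zfp37: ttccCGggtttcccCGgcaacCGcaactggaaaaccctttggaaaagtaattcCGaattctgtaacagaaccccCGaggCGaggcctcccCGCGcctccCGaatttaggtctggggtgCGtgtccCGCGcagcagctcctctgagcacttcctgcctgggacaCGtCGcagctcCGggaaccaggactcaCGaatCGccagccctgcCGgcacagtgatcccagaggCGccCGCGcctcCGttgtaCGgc
Zfp781: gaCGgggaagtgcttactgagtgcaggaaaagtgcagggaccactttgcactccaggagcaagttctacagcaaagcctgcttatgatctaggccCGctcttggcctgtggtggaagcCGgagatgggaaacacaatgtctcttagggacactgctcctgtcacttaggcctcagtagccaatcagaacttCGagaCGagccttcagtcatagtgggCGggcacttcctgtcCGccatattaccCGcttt
Zfp512: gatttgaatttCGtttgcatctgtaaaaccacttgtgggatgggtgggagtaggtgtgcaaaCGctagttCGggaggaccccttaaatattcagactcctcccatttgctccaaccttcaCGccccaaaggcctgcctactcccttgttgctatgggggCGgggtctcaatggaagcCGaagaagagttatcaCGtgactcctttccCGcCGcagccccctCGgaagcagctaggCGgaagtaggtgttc
Zfp853: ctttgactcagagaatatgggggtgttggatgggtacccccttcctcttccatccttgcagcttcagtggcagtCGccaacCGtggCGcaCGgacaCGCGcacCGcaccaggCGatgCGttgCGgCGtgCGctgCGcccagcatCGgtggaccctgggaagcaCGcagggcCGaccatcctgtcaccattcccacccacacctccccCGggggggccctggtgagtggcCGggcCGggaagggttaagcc
Zfp651: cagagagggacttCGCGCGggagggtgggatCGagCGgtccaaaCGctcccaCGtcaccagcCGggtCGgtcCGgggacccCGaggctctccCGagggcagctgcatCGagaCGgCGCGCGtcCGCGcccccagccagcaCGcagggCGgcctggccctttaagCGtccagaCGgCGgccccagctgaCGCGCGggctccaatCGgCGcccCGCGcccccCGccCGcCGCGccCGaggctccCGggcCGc
Zfp422: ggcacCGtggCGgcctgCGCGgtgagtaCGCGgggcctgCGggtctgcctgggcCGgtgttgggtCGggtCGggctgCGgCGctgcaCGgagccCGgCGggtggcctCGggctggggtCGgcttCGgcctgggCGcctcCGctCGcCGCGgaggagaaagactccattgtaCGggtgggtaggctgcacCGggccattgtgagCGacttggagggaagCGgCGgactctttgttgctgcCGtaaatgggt
Zfp996: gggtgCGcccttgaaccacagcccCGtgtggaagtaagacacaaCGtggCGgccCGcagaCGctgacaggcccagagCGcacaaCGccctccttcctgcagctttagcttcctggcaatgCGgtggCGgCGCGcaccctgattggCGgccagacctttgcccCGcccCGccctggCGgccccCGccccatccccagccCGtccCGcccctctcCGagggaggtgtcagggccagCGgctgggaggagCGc

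The printed Zfp37 promoter (chr4:62208547-62208796, reverse strand) held 23 CG in its 250 bases. Its start lay 583 bp inside the gene's high end, so the gene record reaches further upstream. Mean coverage of the bins it touches was 0 in EV, 3.04 in Braf-Full and 0.482 in Braf-Base. Zfp781 (chr10:81930513-81930762, reverse) held 8 CG, with 0.0251, 1.96 and 1.31 in the same order. Both peaks are thus of the Braf libraries. Zfp512 (chr5:31452186-31452435, forward) held 11 CG, with 0.0502, 1.63 and 1.30. Zfp853 (chr5:143293535-143293784, reverse) held 19 CG, with 0.477, 4.26 and 3.48. All 4 promoters were thus higher in both Braf libraries than in EV, and lower in Base medium than in full medium. Zfp422 (chr6:116628702-116628951, reverse) held 29 CG, with 0.0502 in EV, 0 in Braf-Full and 0.815 in Base medium. Zfp996 (chr12:18387241-18387490, forward) held 22 CG and stood at 7.45, 9.41 and 10.7. Zfp651 (chr9:121759783-121760032, forward) held 38 CG, the most of these 7, and had 0, 0.0490 and 0, although the gene's own low end 714 bp upstream of that start gained coverage.

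Over the 301 members with a promoter in the RefSeq table, the 300 bases from 250 before to 50 after the start held a median of 13 CG (range 1 to 59), against 14 (0 to 65) over 16457 genes. At least 1 CG was present in 100% of Zfp promoters and 95% of all promoters. Few CG, 0 to 4, were found in 8.97% of Zfp promoters and 28.1% of all promoters, and 15 or more in 46.2% and 48.8%. For 59 members strand and promoter were not used here; their ends are called low or high by coordinate. In 65 of the 301 promoters some run of 50 bases also occurred in the promoter of another gene. For Zfp781 that held for 100% of its runs (with BC024063 and Gm3055), for Zfp651 for 55.8% and for Zfp37 for 29.5%. The reads were 50 bp long, so coverage of such copies may have been assigned to either locus, and these values are uncertain in that respect.

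Coverage is given as normalised coverage, the number of read overlaps times the authors' own step per library and per bin, and an end is called covered at 0.119 or more, which is 2 times the mean over all bins. The Braf-Full library differs from the others in its background. It had no read in 43.3% of all bins, against 87.2% in EV and 83.0% in Braf-Base. Total overlaps were 12530155 in EV, 20914446 in Braf-Full and 14850571 in Braf-Base, or about 5041726, 8648828 and 5985362 reads. In a window, 1 read was worth 0.0113, 0.0108 and 0.00836. RNA was not analysed here, and the gene ends of 6 epithelial genes and of 6 genes of other cells did not tell cell types apart (covered ends 2, 4 and 1 of 12, and 2, 2 and 2 of 12, in the order above), so the tissue label could not be checked.

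Most Zfp gene ends had little coverage. MBD-seq sees a window only where it holds CpG, so low coverage alone does not show low methylation. Of the 720 ends, 593 (82.4%) were covered in no library, close to the 81.7% of all gene ends. Covered ends numbered 85 in EV (11.8%), 112 in Braf-Full (15.6%) and 88 in Braf-Base (12.2%), beside 11.9%, 16.5% and 12.8% of all gene ends. Median coverage was 0.00456, 0.0535 and 0.00674, beside 0.00913, 0.0579 and 0.00674 over all gene ends. In EV, 350 member ends (48.6%) had no read at all, in Braf-Full 8 and in Braf-Base 243. At this depth a window without a read allows a coverage of up to 0.0340 in EV, 0.0323 in Braf-Full and 0.0251 in Braf-Base (3 reads, for counting error only). By these counts the family lay close to genes at large in each library.

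Starts and 3′ ends differed in level. Among the 301 members of known strand, 46 genes were covered at the start in at least 1 library, 54 at the 3′ end, 10 of these at both, and 211 genes at neither. Starts were covered in no library for 84.7% of these members, beside 82.3% over all genes, and 3′ ends for 82.1%, beside 82%. Coverage at both ends was not counted over all genes, so the overlap is not read as a trait of the family. In EV 20 starts (6.64%) and 44 3′ ends (14.6%) were covered. Over all genes of known strand those shares were 9.64% and 13.5%. In Braf-Full 40 Zfp starts (13.3%, beside 15.6% of all starts) and 50 3′ ends (16.6%, beside 16.8% of all 3′ ends) were covered. In Base medium 28 starts (9.3%, beside 12.2%) and 43 3′ ends (14.3%, beside 12.6%) were covered. Within the 3′ window, coverage lay on the gene's side: 0.181 inside and 0.0551 outside in EV, 0.223 and 0.102 in Braf-Full, and 0.214 and 0.0674 in Braf-Base. The inside was 3.29, 2.20 and 3.18 times the outside, beside 2.58, 1.80 and 2.56 over all genes. In the bin 1000 bp before the 3′ end, Zfp genes averaged 0.308 in EV, 0.343 in Braf-Full and 0.345 in Base medium, where all genes averaged 0.165, 0.197 and 0.178. This rise of the mean toward the body of the gene was seen in all 3 libraries, EV included. In the bin 1000 bp before the end, 76.1% of Zfp 3′ ends in EV, 41.2% in Braf-Full and 72.4% in Base medium had no read. Over all 3′ ends 73.9%, 34.0% and 69% had none. Median coverage of the 3′ window was 0.00456, 0.049 and 0.00674 for Zfp genes, beside 0.00913, 0.0535 and 0.0101. The higher mean thus does not describe the typical Zfp 3′ end. Around the start the profile was peaked instead, with 0.135, 0.243 and 0.218 in the bin 200 bp downstream. The starts of all genes averaged 0.136, 0.221 and 0.220 in that bin.

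**Figure D1:**
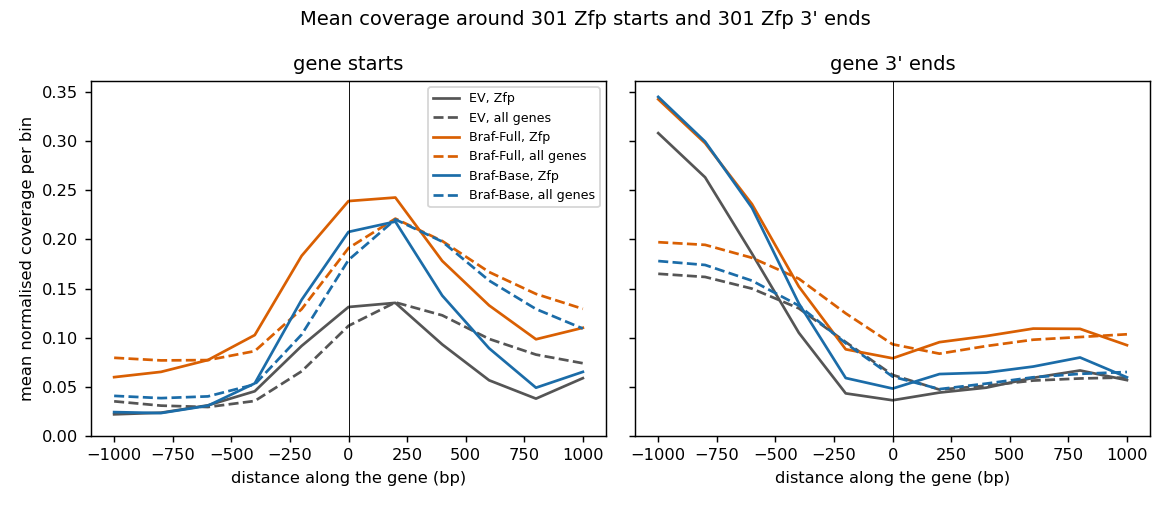
Mean normalised coverage per 200-bp bin (vertical axis) against distance in bp along the gene (horizontal axis, negative upstream) around 301 Zfp starts and 301 Zfp 3′ ends (solid lines) and 16457 starts and 3′ ends of all genes (dashed), in 3 colours for the 3 libraries. The mean of Zfp 3′ windows climbs toward the gene body to 0.308 to 0.345, above the 0.165 to 0.197 of all genes. The share of ends without a read there was nevertheless higher for Zfp genes than for all genes.

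Some Zfp ends were methylated in every library: 67 ends (9.31%, beside 9.58% of all gene ends) were covered in all 3. They belonged to 60 genes and comprised 37 3′ ends, 16 starts and 14 ends of unknown strand. The start of Zfp996 on chromosome 12 stood at 4.07 in EV, 4.99 in Braf-Full and 5.68 in Base medium. The low end of Zfp575 on chromosome 7 had 4.46, 4.44 and 3.74, and that of Zfp978 on chromosome 4 had 3.47, 3.74 and 3.89. Most of the set lay at 3′ ends, where Zfp579 had 2.81, 2.73 and 3.46, Zfp787 had 2.45, 2.50 and 3.26, and Zfp768 had 1.98, 2.16 and 2.24. The start of Zfp541, a gene of meiotic germ cells, had 2.10, 2.40 and 2.71. Zfp42 encodes Rex1, a marker of pluripotent cells, and was covered at both ends, with 0.288, 0.343 and 0.307 at its start and 0.771, 0.904 and 1.16 at its 3′ end. Of the 67 ends, 60 differed by less than 0.5 on the log2 scale between EV and Braf-Full and 57 between EV and Base medium, although choosing ends covered in all libraries favours small differences. By the call rule given next, 2 were gained in Braf-Full against EV (Zfp853 and Zfp532), and 3 were gained (Zfp853, Zfp329 and Zfp709) and 1 lost (Zfp334) in Base medium against EV. Neither these calls nor the small differences were counted over the 3960 gene ends of any family covered in all 3 libraries. They are therefore not read as a trait of Zfp genes.

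An end was called gained when the log2 ratio of the libraries, with a pseudocount of 0.0597 added to each, was at least 1, and lost at -1 or less, if the higher library was covered. The pseudocount shrinks the log2 ratio where coverage is low; a fold is the ratio of coverage itself. Ranges in brackets are 95% Clopper-Pearson intervals computed from the estimated reads of both windows, and where a library had no read 3 reads stood in for its 0, which makes the fold a lower bound. They cover counting error only.

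With Braf activated in full medium, the comparison that asks what the oncogene goes with, single Zfp genes went from next to no coverage to high coverage while the median over the family moved about as that of all gene ends. Of 720 ends, 28 (3.89%) were gained and 1 (0.139%) was lost, against 4.64% gained and 0.603% lost over all gene ends. The median log2 ratio was 0.62, beside 0.66 over all gene ends. Of the 301 starts 19 were gained (6.31%, beside 6.56% of all starts) and 0 lost (beside 0.717%). Of the 301 3′ ends 3 were gained (0.997%, beside 2.56% of all 3′ ends) and 1 lost (0.332%, beside 0.492%). Of the 118 ends of unknown strand 6 were gained (5.08%). The shares gained over all members and over starts were near the background. Those of 3′ ends gained and of members and starts lost were lower, on few ends, and were not tested. None of them is taken as a result about the family.

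Among the gained ends, 10 are described singly because they alone stayed called under each of 8 other settings. Zfp37, a zinc finger gene best known from the testis, had no read at its start in EV (position 62209129 of chromosome 4), 1.15 in Braf-Full and 0.242 in Base medium. Coverage with Braf was at least 33.8-fold higher than in EV. Zfp503, a transcriptional corepressor of the developing forebrain and limb, stood at 0.0548 in EV, 2.07 in Braf-Full and 2.01 in Base medium at its 3′ end (chromosome 14, 21983959). That rise was 37.7-fold (15.4 to 114) in full medium and 36.7-fold (14.9 to 110) in Base medium. At its start the same gene had 0.205, 0.107 and 0.30, so the call was at the 3′ end and not at the start.

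Zfp580 rose at its 3′ end (chromosome 7, 5053723) from 0.0411 to 1.28 in Braf-Full, 31.1-fold (10.8 to 105), and had 1.18 in Base medium. The window of an end of the neighbouring gene Ccdc106 overlaps this one, so the signal cannot be given to 1 gene. Zfp653, which encodes a nuclear corepressor, went from 0.0456 to 0.918 at its 3′ end (chromosome 9, 22055411), 20.1-fold (7.60 to 75.8), with 0.586 in Base medium. Zfp503, Zfp580 and Zfp653 are the 3 gained 3′ ends among genes of known strand.

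Zfp781 went from 0.00913 in EV to 0.753 in Braf-Full at its start (chromosome 10, 81930512), with 0.519 in Base medium. The fold of 82.5 (11.5 to 2660) rests on 2 overlaps, about 1 read, in EV. Zfp764 rose from 0.00913 to 0.503 (chromosome 7, 127406835; 55.2-fold, 7.63 to 1800) and had 0.394 in Base medium. Zfp512 rose from 0.0137 to 0.566 (chromosome 5, 31452421; 41.3-fold, 8.65 to 2030) and had 0.455 in Base medium. Each of these starts was thus almost empty in EV and well covered in both Braf libraries.

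Zfp853 was already covered in EV at its start (chromosome 5, 143293982), at 0.132, and reached 1.24 in Braf-Full (9.36-fold, 5.01 to 18.1) and 0.930 in Base medium. Zfp9 rose at its high end (chromosome 6, 118479961) from 0.0137 to 0.370 (27-fold, 5.42 to 1310) and had 0.205 in Base medium. Zfp651 alone of the 10 was under the minimum in Base medium: it had no read at its start in EV (chromosome 9, 121759319), 0.388 in Braf-Full, at least 11.4-fold higher, and 0.0606 in Base medium. Local background, the mean coverage of bins with at most 2 overlaps up to 1 Mb to each side relative to the genome, differed between these libraries by log2 ratios from -0.43 (Zfp853) to 0.22 (Zfp503) at the 10 ends. All 10 stayed called with it divided out.

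**Figure D2:**
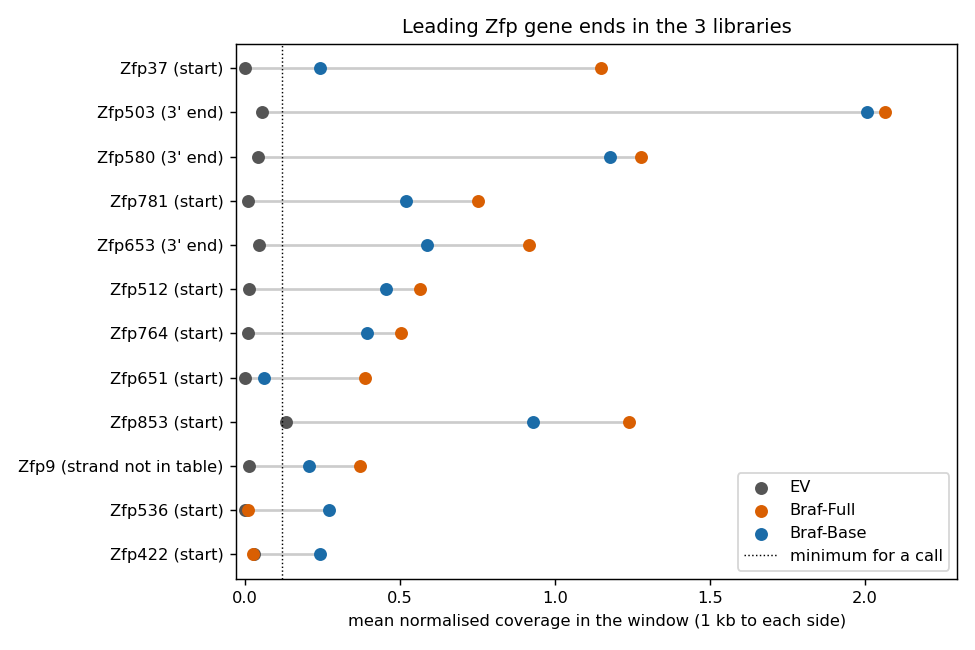
Mean normalised coverage in the window (horizontal axis) of 12 Zfp gene ends (rows), with 1 point per library and a dotted line at the minimum of 0.119. In the upper 10 rows Braf-Full is highest and EV lowest; Zfp536 and Zfp422 are above the minimum in Braf-Base only, at 0.269 and 0.242.

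Coverage within these windows was uneven, with 2 to 5 of the 11 bins at 50% of the top or more. At Zfp37 the top bin lay 600 bp inside the gene with 0, 4.46 and 0.852 in EV, Braf-Full and Base medium. At Zfp781 the top bin, 200 bp inside, had 0.0502, 2.89 and 1.93. At Zfp512 it was the bin of the start itself, with 0.0502, 2.3 and 1.89. These are peaks of a few bins around the start. At Zfp764 the top bin was 400 bp inside, with 0, 2.20 and 1.63, and at Zfp853 also 400 bp inside, with 0.653, 4.51 and 3.45. Zfp651 peaked in the bin of the gene's low end, with 0, 1.42 and 0.259. At Zfp653 the top bin lay 400 bp before the 3′ end, with 0.201, 3.72 and 2.41. Zfp503 had a peak at each edge of its 3′ window and little between: 1000 bp before the end it had 0.201, 5.44 and 5.96, in the bin of the end 0, 0.196 and 0.111, and 800 bp beyond it 0.151, 5.44 and 5.15. Zfp580 also had more than 1 maximum, with 0.0502, 3.04 and 2.67 in the bin 600 bp before its end and 0.0502, 1.81 and 1.81 in that 200 bp beyond. Both Braf libraries peaked in the same bin except at Zfp37, where the top in Base medium lay 800 bp inside, at 1.04, and at Zfp853, where it lay 200 bp inside, at 3.52.

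**Figure D3:**
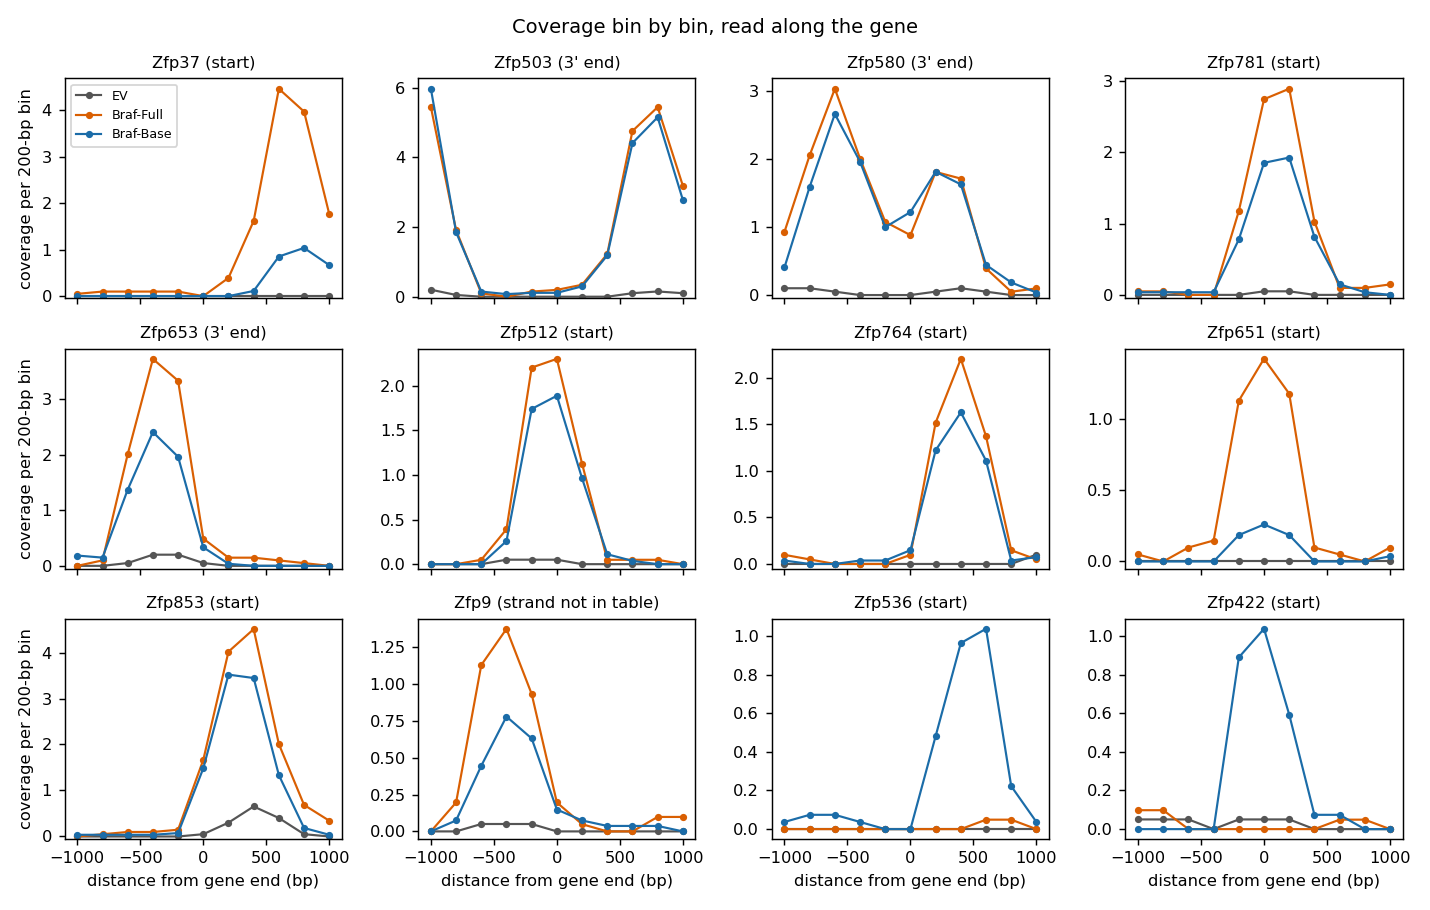
Normalised coverage per 200-bp bin (vertical axis, own scale per panel) against distance in bp from the gene end (horizontal axis, read along the gene, or by coordinate for Zfp9), 1 line per library. At Zfp37, Zfp781, Zfp512, Zfp764 and Zfp853 a single peak rises in both Braf libraries, while Zfp536 and Zfp422 peak in Base medium alone, at 1.04 each.

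The other 18 gained ends, Zfp532 apart, reached 0.120 to 0.245 in Braf-Full. Coverage was under 0.2 at 13 of the 28, near the minimum for a call, in a library where the median over all gene ends was 0.0579. Zfp592 and Zfp687, paralogs linked to a chromatin complex with Zmynd8, had 0 in EV and 0.134 and 0.138 in Braf-Full at their starts. In Base medium they were back at 0.0101 and 0. Zfp532, the related gene on chromosome 18, was higher throughout, with 0.406, 1.35 and 0.812 at its low end. The gains of Zfp592, Zfp687 and Zfp532 were not called with equal totals. Zfp882 went from 0 to 0.187 and Zfp663 from 0.0228 to 0.20 at their starts. Zfp747, beside Zfp764 in its array, went from 0.0639 to 0.20. The start of Zfp526, whose window overlaps that of an end of Dedd2, went from 0 to 0.138, and the start of Zfp775 from 0 to 0.134. The 1 lost end was the 3′ end of Zfp957 on chromosome 14, with 0.470 in EV, 0.183 in Braf-Full and 0.0674 in Base medium. With equal library totals, 12 ends were gained and 8 lost (beside 1.71% and 2.09% of all gene ends), and with background subtracted 15 and 7 (beside 2.47% and 1.35%), so the excess of gains over losses depends on the scaling.

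**Figure D4:**
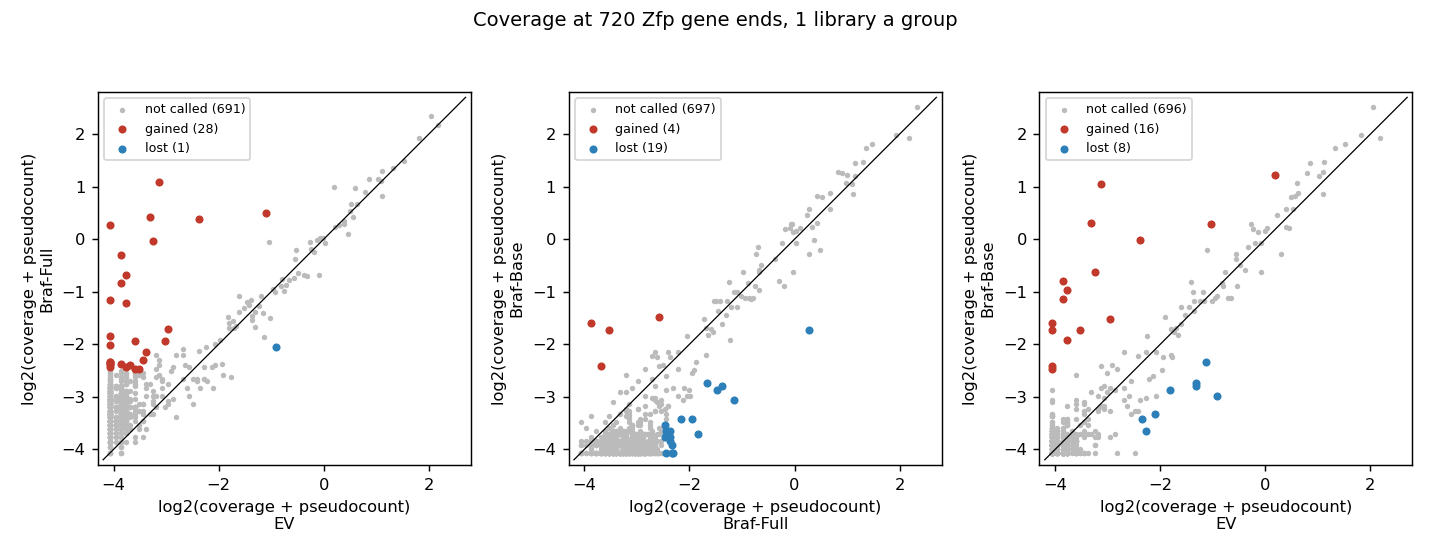
Log2 of coverage plus the pseudocount of 0.0597 at 720 Zfp gene ends, for Braf-Full against EV, Braf-Base against Braf-Full, and Braf-Base against EV, with the line of equal values; red points are gained, blue lost. Gains from near 0 stand apart at left in both panels against EV, and most losses of the second panel lie at the low end of Braf-Full.

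What came with growth in the absence of niche factors was read by setting Braf-Base against Braf-Full. In this comparison 4 Zfp ends were gained (0.556%) and 19 lost (2.64%), against 1.03% and 2.94% over all gene ends, and the median log2 ratio of -0.61 equalled that of all gene ends. All 4 gains were at starts (1.33%, beside 1.8% of all starts), and of the losses 12 were at starts (3.99%, beside 3.49%) and 7 at ends of unknown strand. No Zfp 3′ end was gained or lost, beside 0.128% and 2.29% of all 3′ ends. Zfp536, a repressor of neuronal differentiation, had 0 in EV, 0.00891 in Braf-Full and 0.269 in Base medium, a 30.2-fold rise (4.15 to 1010) that rests on 2 overlaps in full medium. Zfp422 had 0.0274, 0.0267 and 0.242 (9.07-fold over full medium, 2.85 to 97.3). Both were above the minimum in Base medium alone. Zfp78 had 0, 0.0178 and 0.128, near the minimum. The Zfp503 start went from 0.107 to 0.30 (2.8-fold, 1.36 to 6.31), but with windows of 500 bp its log2 ratio turned from 1.11 to -0.67. The Zfp37 start, with 1.15 and 0.242, was 4.74-fold lower in Base medium (3.13 to 7.44), and the Zfp651 start 6.39-fold lower (2.91 to 17.7).

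Those 2 were the only losses that stayed called under all 8 other settings, and 0 of the 4 gains did: the call failed in 1 setting for Zfp536, 2 for Zfp422, 3 for Zfp503 and 4 for Zfp78. Of the 19 losses, 12 started from less than 0.2 in Braf-Full, among them Zfp592, Zfp687, Zfp526 and Zfp574. Some started higher: the high end of Zfp366, a gene of dendritic cells, had 0.342 in EV, 0.325 in Braf-Full and 0.0842 in Base medium, and the start of Zfp660 had 0.224, 0.298 and 0.0775. With equal totals 30 ends were gained and 3 lost (beside 4.81% and 0.426% of all gene ends), and with background subtracted 6 were gained and 6 lost (beside 1.73% and 0.90%), so the balance of this comparison turns with the scaling. Equal totals moved the median log2 ratio of all gene ends to 0.39 in the first comparison and to -0.32 in this one.

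Base medium against EV leaves out the library with high background. It gave 16 Zfp ends gained (2.22%) and 8 lost (1.11%), against 3.23% and 1.4% over all gene ends, and a median log2 ratio of 0.00 for Zfp and for all gene ends. Of the starts 11 were gained (3.65%, beside 5.2% of all starts) and 2 lost (0.664%, beside 1.31%). Of the 3′ ends 4 were gained (1.33%, beside 0.954%) and 2 lost (0.664%, beside 1.42%). Gained under every setting were Zfp503, Zfp580 and Zfp653 at their 3′ ends and Zfp781, Zfp512, Zfp764 and Zfp853 at their starts, with the values given above. This comparison shares EV with the first and Base with the second, so its calls are not independent of theirs.

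Smaller gains from EV to Base medium were at the starts of Zfp709 (0.429, 0.90 and 1.15 in EV, full and Base medium) and Zfp772 (0.0685, 0.245 and 0.290), and at the 3′ end of Zfp329 (1.08, 1.94 and 2.29). At Zfp709 and Zfp329 full medium lay between EV and Base medium, and the fold of Base over EV was 2.69 (1.86 to 3.94) and 2.11 (1.68 to 2.71). Among the losses, Zfp957 was 6.98-fold lower than in EV (3.22 to 17.2) and Zfp366 4.06-fold lower (1.94 to 9.34). The low end of Zfp831 had 0.146, 0.125 and 0.0202, and the 3′ end of Zfp334 had 0.397, 0.214 and 0.138. None of the 8 losses stayed called under every setting.

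By CG content, 0 of the 27 Zfp starts with 0 to 4 CG were called in any comparison, where 3.57% of all such starts were gained with Braf in full medium and 3.65% lost in Base medium against it. Of 135 starts with 5 to 14 CG, 10 were gained with Braf in full medium (7.41%, beside 7.56% of all such starts) and 4 in Base medium against EV (2.96%, beside 6.22%). Of 139 starts with 15 or more CG, 9 were gained in full medium (6.47%, beside 7.80%) and 7 in Base medium against EV (5.04%, beside 7.16%). Covered starts in EV were 11 in the group of 5 to 14 CG (8.1%, beside 15.4% of all such starts). In that of 15 or more CG they were 8 (5.8%, beside 9.5%). These differences were not tested. The promoter start lay within 1 kb of the gene's own start for 263 of the 301 members. For the rest the CG count may describe sequence outside the window.

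Of the members, 168 genes with 336 ends lay in 16 arrays, defined as at least 5 Zfp genes with less than 500 kb between neighbours. Covered ends made up 10.4%, 13.7% and 10.7% of array ends in EV, Braf-Full and Base medium, and 13.0%, 17.2% and 13.5% of the 384 ends outside. Genes of an array share a locus and are not independent. Values of single arrays rest on few ends and were not tested against each other. In the array of 14 genes at 24.1 to 25.2 Mb of chromosome 7, 10, 10 and 8 of 28 ends were covered, among them the start of Zfp180 (0.621, 0.713 and 0.707), both ends of Zfp61 (0.507, 0.481 and 0.502 at the start) and the 3′ end of Zfp428 (0.817, 0.784 and 0.886). The 6 genes at 4.9 to 5.1 Mb of the same chromosome had 4, 6 and 6 of 12 ends covered, including Zfp579 and Zfp580. By contrast, the array of 20 genes at 66.7 to 67.8 Mb of chromosome 13 had 1, 1 and 0 of 40 ends covered, and arrays of 6 and 9 genes at 27.7 to 28.4 and 42.5 to 43.6 Mb of chromosome 7 had none in any library. The 23 genes at 21.0 to 23.6 Mb of chromosome 17 had 4 of 46 in each library.

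The array of 16 genes at 145.5 to 147.8 Mb of chromosome 4 held 5 covered ends of 32 in EV, 8 in Braf-Full and 3 in Base medium. Of the 32 ends, 4 were gained in Braf-Full against EV, 5 lost in Base against full medium and 2 lost in Base medium against EV. Over all gene ends 4.64%, 2.94% and 1.4% were so called. With so few ends in 1 of 16 arrays, these counts were not tested and are no result about the locus. Zfp991 rose at its low end from 0 to 0.218, and Zfp600, Zfp992 and Zfp979 reached 0.129, 0.134 and 0.165 from 0.0183, 0.00913 and 0.0365; in Base medium all 4 were between 0.0135 and 0.0337. The high end of Zfp992 went from 0.342 to 0.254 and 0.0909. Local background across this array was lower in both Braf libraries than in EV (log2 ratio -0.70 in full medium and -0.52 in Base medium). With local background divided out, the gains of Zfp991, Zfp600, Zfp992 and Zfp979 stayed called, but with equal totals or background subtracted only that of Zfp991 did, and under the 8 settings Zfp600 and Zfp992 lost the call in 6, Zfp979 in 5 and Zfp991 in 2. With local background divided out, the high ends of Zfp992 and Zfp991 were no longer lost between EV and Base medium. In the promoter of Zfp600, 94.0% of runs of 50 bases occurred in another gene's promoter, so assignment of reads within this array is uncertain.

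**Figure D5:**
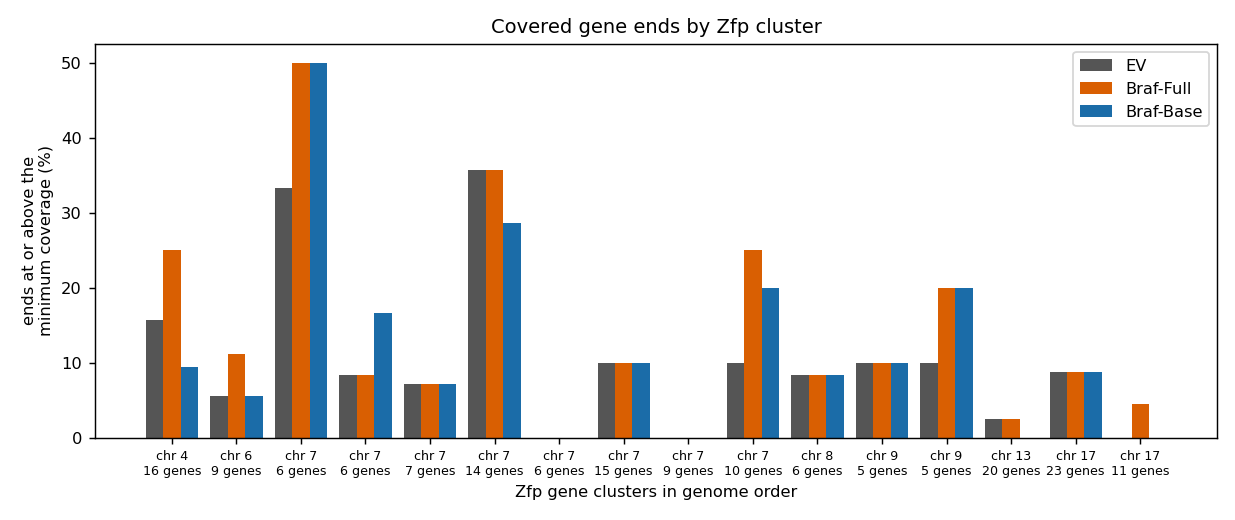
Share of gene ends at or above the minimum coverage of 0.119 (vertical axis, percent) in 16 Zfp arrays in genome order (horizontal axis, labelled by chromosome and number of genes), 1 bar per library. The first array on chromosome 7 (6 genes) reaches 50.0% and the one of 14 genes 35.7%, while the later arrays of 6 and 9 genes on that chromosome are at 0 in each library.

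Genes were also read by known role. Neither Zfp57 nor Zfp445, which keep methylation at imprinted regions, was covered: the Zfp57 start had 0.0137, 0.111 and 0.00674 in EV, Braf-Full and Base medium, and the Zfp445 start 0, 0.0267 and 0.0101. Of 6 genes of pluripotency and stem cells (12 ends) none was called, beside 4.64% of all gene ends gained with Braf in full medium. With so few ends, the lack of calls is no result about the list. Only Zfp42 was covered. The Zfp281 start had 0.00913, 0.0535 and 0.0202, and the Zfp217 start 0, 0.0490 and 0.0135. Of 14 genes of differentiation and development (28 ends), 1 end was gained in Braf-Full against EV (3.57%, beside 4.64% of all gene ends), the 3′ end of Zfp503. In Base medium 2 were gained against EV (7.14%, beside 3.23%), that same 3′ end and the Zfp536 start. Against full medium 2 were gained (7.14%, beside 1.03%), the Zfp536 start and the Zfp503 start, whose log2 ratio changed sign in windows of 500 bp as given above. Zfp423, a regulator of fat and neural progenitors, had 0.0228, 0.0490 and 0.0471 at its start. In the same list Zfp219 and Zfp335 were covered at their 3′ ends in all libraries, with 1.48, 1.53 and 1.78 and with 0.789, 0.824 and 1.08. The Zfp335 window overlaps that of an end of Pcif1, so its signal cannot be given to Zfp335 alone.

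Of 6 RNA-binding members (12 ends) none was called, beside 4.64% of all gene ends gained with Braf in full medium. Among them Zfp36, which encodes the CCCH-type mRNA decay factor tristetraprolin, had 0.0228, 0.0713 and 0.0101 at its start. Among 10 promoter and chromatin factors 2 of 20 ends were gained in full medium (10%, beside 4.64% of all gene ends), Zfp592 and Zfp687, and both were lost in Base medium against full medium (beside 2.94%). Each of these calls failed in 5 or 6 of the 8 other settings, equal totals and background subtracted included. Of 3 genes (6 ends) whose human counterparts are silenced by methylation in tumours, none was called, beside that same 4.64%. With so few ends, the lack of calls is no result about this list or the RNA-binding one. The Zfp382 start had 0.00456, 0.0178 and 0.0135, and the Zfp82 start 0.00913, 0.0267 and 0.

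The partners of KRAB zinc fingers were also read, as 32 ends of 16 genes of the corepressor and its chromatin machinery. Zfp385, Zfp331 and Atrx, also on these lists, had no window here. With Braf in full medium 1 end was gained (3.12%, beside 4.64% of all gene ends) and 0 lost (beside 0.603%). In Base medium against EV also 1 was gained (beside 3.23%) and 0 lost (beside 1.4%). The gained end was in both cases the start of Atf7ip, which stabilises Setdb1, with 0.0137 in EV, 0.151 in full medium and 0.182 in Base medium. The Setdb1 start itself had 0.319, 0.655 and 0.643, short of a call. Trim28 had 0.00913, 0.0312 and 0 at its start, and the maintenance methyltransferase Dnmt1 0.0730, 0.0624 and 0.0471.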

How the data were processed

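The 3 libraries were made from sheared DNA (100 to 200 ng, fragments of 200 to 400 bp) and read from 1 end for 50 bp, per the labels' protocols. The submitters' processing notes name Bowtie2 and the build mm10, without saying how bin values arose. Deposited by the authors were log2 values for 12313737 genome bins of 200 bp. Raising 2 to these values gave a floor of 0.0153 plus whole steps (tolerance 0.001 of a step) of 0.0502 (EV), 0.0490 (Braf-Full) and 0.0371 (Braf-Base), read as overlaps; what the authors' scaling follows is unknown. Isolated runs of 2 or 3 bins with 1 overlap each put a read at 2.48, 2.42 and 2.48 bins. A window without a full set of bins was left out. For 89 member ends the window overlapped that of another gene's end, and coverage there cannot be given to 1 gene. Gene ends came from a RefSeq table on GRCm38.p6, and strand for 301 of 360 members from its promoter table. Planned groups by protein features were not made, since no protein table was used here. The pseudocount is the mean coverage of a bin. The call rule was run on simulated windows, with large changes set only at windows well covered in EV. Neither gains from almost no coverage nor the background of Braf-Full were simulated, so that run does not bear on such calls. Named ends were the 10 largest gains and losses per comparison, the 10 highest in all libraries, a fixed set and called members of lists and arrays; Zfp532, Zfp882, Zfp747, Zfp180, Zfp61, Zfp428, Zfp219 and Zfp335 were named after their values were seen. Members and lists were chosen with earlier results of these data known. Python 3.11.15, numpy 2.4.6, pandas 2.3.3, scipy 1.17.1 and matplotlib 3.10.9 were used.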

Additional observations from a re-analysis of the deposited data

How the results depend on the processing

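As reported, gained and lost Zfp ends numbered 28 and 1 (Braf-Full against EV), 4 and 19 (Base against full medium) and 16 and 8 (Base against EV), with median log2 ratios of 0.62, -0.61 and 0.00. With equal totals the first comparison gave 12 and 8 (median 0.40) and the second 30 and 3 (-0.33). With background subtracted the first gave 15 and 7 (0.00) and the second 6 lost (0.00). With a pseudocount 4 times as large the 3 gave 11 and 0 (0.20), 1 and 2 (-0.20), and 10 and 1. With a minimum of 5 times the mean they gave 11 gained, 1 and 4, and 9 and 4. With no minimum, 160 were gained in the first and 141 lost in the second. Windows of 500 bp gave 47 and 5 (0.72), and 7 and 36 (-0.58), and reversed the Zfp503 start between full and Base medium to -0.67. At 3-fold, 0 were lost in the first, 2 gained and 6 lost in the second, and 1 lost in the third. With local background divided out, an alternative chosen after seeing the data, losses were 0, 12 and 5. Larger pseudocounts, higher minimums and 3-fold raise the bar for a call by construction; elsewhere the cause was not tested. All other counts stayed within 1.5 times the reported value. Among the alternative settings, shares over all gene ends are given only for equal totals and background subtracted. Counts under the others, such as 160 and 141, therefore cannot be read as a trait of the family. No paired analysis was possible because each group holds 1 library, which also leaves no replicate to leave out. A window near 0 rests on few reads, so folds from there have wide counting intervals.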

Other observations

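Other zinc finger families (Zbtb, Zscan, Zkscan and a few smaller ones; 138 ends of 69 genes) had 5 ends gained (3.62%, beside 4.64% of all gene ends) and 1 lost (0.725%, beside 0.603%) with Braf in full medium, 2 gained (1.45%, beside 1.03%) and 0 lost (beside 2.94%) in Base medium against full medium, and 4 gained (2.9%, beside 3.23%) and 0 lost (beside 1.4%) in Base medium against EV. The gained shares and the 1 loss lie near the background. In Base medium 0 ends were lost in either comparison, below the background shares, and this was not tested. Zbtb16, which encodes the BTB-domain factor PLZF, had 0 in EV, 0.107 in Braf-Full and 0.579 in Base medium at its high end. Zbtb10 had 0.808, 0.90 and 2.21 at its low end. The 3′ end of Zscan26 went from 0.0411 to 0.263 and 0.249, and the start of Zbtb12 from 0.461 to 1.06 and 1.05. Zbtb7c had 0, 0.254 and 0.101 at its low end. The loss was at the low end of Zbtb48, with 0.999, 0.388 and 0.754, on chromosome 4 at 152019773.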
